A study of Arabidopsis thaliana with 12 samples.

Results

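Wild-type (WT) Arabidopsis thaliana seedlings kept for 12 h at 29 °C were compared with WT seedlings kept for 12 h at 22 °C, over every gene of the deposited table that passed a filter on low counts. The comparison rests on 6 of the 12 libraries of the series, 3 from WT at 29 °C and 3 from WT at 22 °C. These are written W1, W2 and W3 (29 °C) and C1, C2 and C3 (22 °C), by the replicate number in the labels, and the values of a gene are always given in that order. The other 6 libraries come from a line labelled rve5-2, again 3 at each temperature. They enter the low-count filter, the scaling and the estimate of the spread. Their own warm response is given in places for comparison. All seedlings were 5 days old, had been raised at 22 °C in long days of 16 h light and 8 h dark, and were collected 12 h after lights on. The labels name no mutation, transgene or agent for WT and do not give its accession. A treatment text shared by all samples names 29 °C, so the temperature of a library was taken from its own label. The labels do not say whether replicates were separate cultures, so a p-value here reflects how far the libraries spread, which may be technical.

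Moderate warmth makes Arabidopsis seedlings elongate their hypocotyls and petioles, and it acts on transcription well beyond chaperones and the clock. Warm membranes become more fluid, Rubisco loses selectivity for CO2 so that photorespiration gains, and plants in warmth change how they use water and carbon. Many genes of such processes carry no symbol in the deposited table, and they are described here beside pathway lists.

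RNA of seedlings was sequenced with a TruSeq v2 kit that does not mark strand, so reads of overlapping or antisense genes cannot be told apart. Levels are CPM, deposited counts per 1e+06 counts after scaling, and a gene was called where its adjusted p in edgeR's quasi-likelihood test (Benjamini-Hochberg over all genes tested) was under 0.05. Totals were 76.8 to 89.1 M counts at 29 °C and 74.2 to 82.3 M at 22 °C. The deposited table has 32399 genes. Of these, 21870 were tested, of which 1767 (8.08%) were higher and 1620 (7.41%) lower at 29 °C, and 181 (0.828%) and 518 (2.37%) differed at least 2-fold. Higher genes made up 52.2% of these calls, but 41% in limma on log2(FPKM + 1) and 42.9% on log2(FPKM + 0.1). Called genes whose 3 libraries at 29 °C do not overlap the 3 at 22 °C made up 15.3% of the genes tested. Called or not, genes without overlap made up 36.3%. Of the 3387 called genes 3353 have no overlap, so a lack of overlap says little beyond a call. The median log2 fold change over all genes tested was 0.0018. Leaving out C3 lowered the totals most, to 989 higher and 768 lower, and without C1 they were 1163 and 1009, without C2 1174 and 1108, without W1 1254 and 1252, and with the WT libraries alone in the fit 934 and 708. A gene is said to lose its call without a library where its adjusted p was then 0.05 or more.

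Root tissue markers moved with temperature, and W1 stood apart in them. Of 19 markers of root hair, endodermis and root meristem or other root tissue 12 fell and 0 rose. The falls were 8 of 9 for root hair and 3 of 4 for endodermis. For root meristem and other root they were 1 of 6, PIN2. Over all 19 markers, W1 was the lowest of the 29 °C libraries in 17. Their summed level was 16.5 to 79.5 CPM at 29 °C, against 131 to 245 CPM at 22 °C. A root score, which averages log2(CPM + 0.5) over 12 of these markers, was 0.987 ± 0.630 at 29 °C and 3.02 ± 0.529 at 22 °C (SD, n = 3 each), and 0.259 in W1. Summed leaf mesophyll markers were 31203 to 43247 CPM at 29 °C and 30943 to 33990 CPM at 22 °C, with 1 of 5 higher and 1 lower. Of 3 xylem markers 2 fell and of 3 phloem markers 0 were called, and 3 of 4 seed storage markers were at 0 in all 6 libraries. In seedlings sampled as a whole, fewer cells of a type and less RNA per cell cannot be told apart. Warmth and root signal move together in these libraries. Adjusted for root score, that is with the score as a covariate, 17 genes were called higher and 1 lower, and the log2 fold changes of the 3387 called genes had a median of 0.588 of their size. Beyond that adjustment, the part of root signal in the results was not tested.

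Of the genes tested, 19245 have no symbol in the table. At 29 °C 1523 of them (7.91%) were higher and 1283 (6.67%) lower, with 0.774% and 2.33% at least 2-fold and 30.3% at an unadjusted p under 0.05, against 244 (9.3%) and 337 (12.8%) of the 2625 genes with a symbol. The reference annotation, RefSeq on TAIR10.1, gives a symbol to 1112 of the 2806 that were called, 328 have no description and 386 no Gene Ontology (GO) term. The 12 largest rises and 12 largest falls come next, taken among called genes whose libraries do not overlap and whose higher group averages at least 5 CPM. Their lack of overlap is therefore set by the rule.

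The rises included genes of protein folding, of calcium signalling and of mitochondrial respiration, and genes with no known role. CIPK20 (AT5G45820, chromosome 5, 18586980 to 18588543), a protein kinase controlled by calcineurin B-like calcium sensors, had 6.92, 5.08 and 3.16 CPM at 29 °C, against 0.699, 0.69 and 0.64 CPM at 22 °C (log2 fold change 2.90, SE 0.41, adjusted p = 0.00108). All of its warm libraries stood above all cool ones, which were under 1 CPM. AT5G25450 (chromosome 5, 8856997 to 8858476), which the table describes as a small subunit of cytochrome bd ubiquinol oxidase, had 5.92, 6.69 and 7.73 CPM at 29 °C, against 1.02, 1.24 and 0.699 CPM at 22 °C (log2 fold change 2.78, SE 0.25, adjusted p = 6.25e-05). The 3 warm libraries were close together and far above the cool ones.

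AT5G12110 (chromosome 5, 3914468 to 3915968), described as a translation elongation factor EF1B with a glutathione transferase-like domain, had the smallest adjusted p of these genes. Its levels were 138, 139 and 133 CPM at 29 °C, against 32.6, 27.1 and 28.4 CPM at 22 °C (log2 fold change 2.22, SE 0.096, adjusted p = 3.60e-07), and it was also called after adjustment for root score (2.06, adjusted p = 0.00303). The papain-like cysteine proteinase gene AT2G27420 had 28.6, 26.7 and 24.2 CPM at 29 °C, against 4.9, 5.72 and 6.49 CPM at 22 °C (log2 fold change 2.22, SE 0.16, adjusted p = 8.44e-06). For both, each warm library exceeded each cool one several times over.

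TIN1 (AT5G64510, chromosome 5, 25784404 to 25786307), a gene induced when unfolded proteins collect in the endoplasmic reticulum, had 9.08, 7.89 and 9.91 CPM at 29 °C, against 1.44, 1.05 and 1.87 CPM at 22 °C (log2 fold change 2.62, SE 0.20, adjusted p = 1.74e-05). HSFA2 (AT2G26150, chromosome 2, 11135682 to 11137396), a heat shock transcription factor that prolongs the heat response, had 10.9, 10.5 and 11 CPM at 29 °C, against 2.56, 2.23 and 2.33 CPM at 22 °C (log2 fold change 2.19, SE 0.16, adjusted p = 8.57e-06). Neither gene overlapped between temperatures. AT1G65490, which has no description, had 13.3, 16.5 and 13.2 CPM at 29 °C, against 1.94, 3.57 and 0.675 CPM at 22 °C (log2 fold change 2.80, SE 0.52, adjusted p = 0.0046). Among its warm libraries W1 was the middle one. The list also holds the small heat shock gene AT5G51440, the immunophilin gene AT5G48570 and the clock coactivator gene AT5G64170, at log2 fold changes of 2.80, 2.29 and 2.17. Its largest rise by fold, AT1G64628 (log2 fold change 2.97, adjusted p = 0.0294), is annotated as a conserved upstream open reading frame and overlaps AT1G64630 and AT1G64640. AT1G64628 lost its call without W3, C1, C2 or C3.

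AT1G62510 (chromosome 1, 23136369 to 23137191), a member of the lipid-transfer protein superfamily, had 49.8, 34.6 and 42.4 CPM at 29 °C, against 8.88, 4.5 and 7.1 CPM at 22 °C (log2 fold change 2.63, SE 0.23, adjusted p = 5.84e-05), with no overlap. Its upstream region holds a heat shock element, the motif that heat shock factors bind, searched as GAA, any 2 bases, TTC, any 2 bases and GAA on both strands in the 250 bases before each gene's start in the table. Of the 181 genes that rose at least 2-fold 5.52% hold it, against 0.489% of all 21870 genes tested, and with RefSeq starts in place of the table's starts 2.76% against 0.421%. The stretch is shown with that of SR45a, a splicing factor gene described below, in TAIR10, on the minus strand (chr1:23137371-23137400 and chr1:2260131-2260160), with the element or its reverse complement in capitals. With RefSeq starts the element of AT1G62510 stays within the 250 bases and that of SR45a does not. A match describes the letters and is not a measured binding site.
AT1G62510: ttgttggaaGAATCTTCTCGAAcccagtct
SR45a: cgtccgactTTCCCGAAGCTTCtttctaaa

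**Figure D1:**
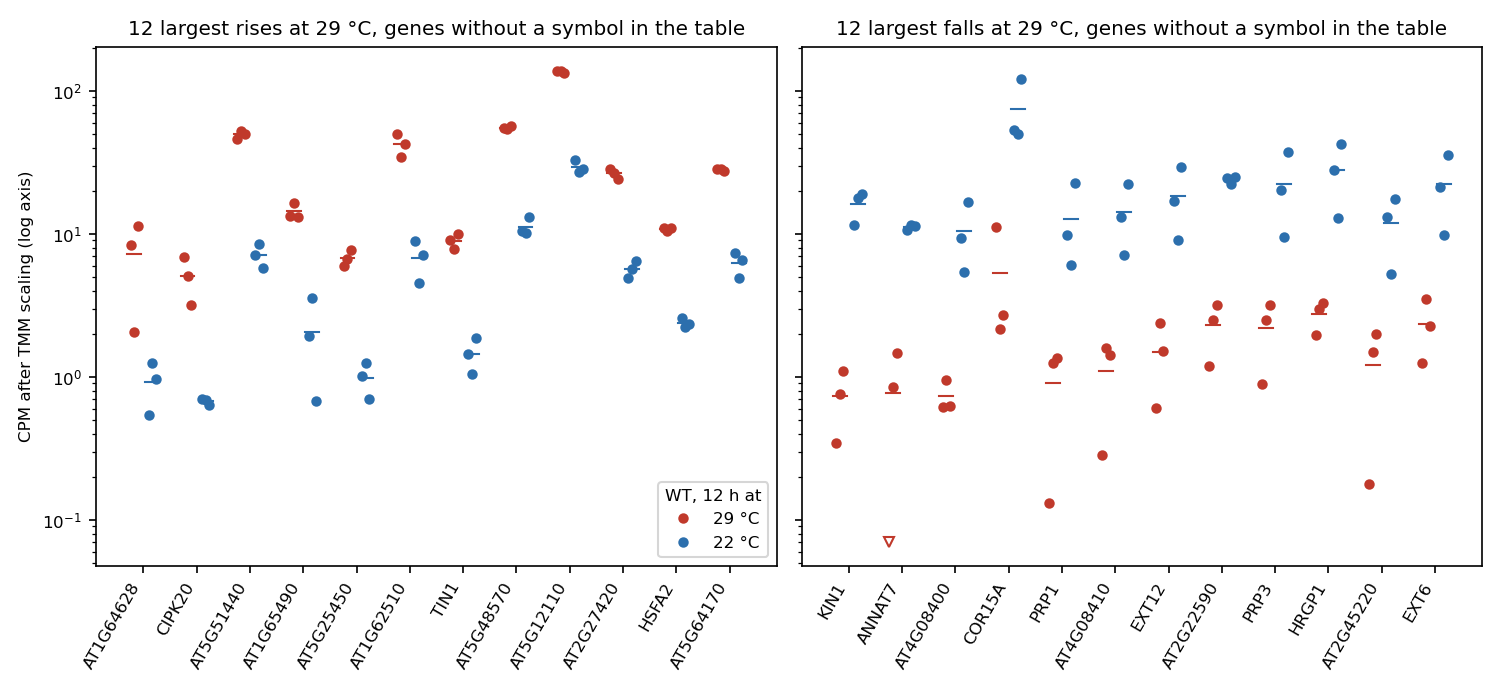
Levels of the 12 largest rises and the 12 largest falls among genes without a symbol in the table, as CPM on a log axis. Each point is 1 library, WT at 29 °C left of WT at 22 °C, and an open triangle marks a library listed at 0. The groups do not overlap in any gene because the genes were chosen that way; the plot shows how far apart they lie.

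The falls comprised cold-responsive genes and many wall protein genes of the root. KIN1 (AT5G15960, chromosome 5, 5209898 to 5210727), a small cold- and drought-induced protein, had 0.345, 0.761 and 1.11 CPM at 29 °C, against 11.6, 17.9 and 19 CPM at 22 °C (log2 fold change -4.45, SE 0.61, adjusted p = 0.000985). COR15A (AT2G42540, chromosome 2, 17711032 to 17712330), which protects chloroplast membranes during freezing, had 11.1, 2.17 and 2.7 CPM at 29 °C, against 53.2, 49.7 and 121 CPM at 22 °C (log2 fold change -3.81, SE 0.64, adjusted p = 0.00278). All warm libraries lay below all cool ones for both genes, and among the warm libraries COR15A was highest in W1 and KIN1 lowest. Both calls held without each library in turn, and when root score was a covariate the log2 fold changes were -2.26 and -4.53, with neither gene called.

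Cold-induced genes often carry the C-repeat, the site of the CBF factors, whose core CCGAC was searched on both strands. It stands in the 250 bases before the start of 14.2% of all genes tested and of 15.5% of the genes called lower, a share close to that of all genes. With RefSeq starts the shares were 12.7% and 13.7%. COR15A holds 2 copies and a G-box (CACGTG), and KIN1 holds 1 copy and 2 G-boxes, which lie outside the printed stretch; with RefSeq starts the copy in KIN1 is no longer within 250 bases. The COR15A stretch covers the 250 bases before the table's start on the minus strand of TAIR10 (chr2:17712331-17712580), and that of KIN1 lies on the plus strand (chr5:5209801-5209830), with CCGAC, its reverse complement and the G-box of COR15A in capitals.
COR15A: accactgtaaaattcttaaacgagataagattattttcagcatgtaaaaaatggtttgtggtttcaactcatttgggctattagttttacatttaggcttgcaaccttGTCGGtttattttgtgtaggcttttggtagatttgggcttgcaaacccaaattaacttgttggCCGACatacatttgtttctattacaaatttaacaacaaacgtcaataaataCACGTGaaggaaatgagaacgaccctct
KIN1: cgataaatagctaCCGACataaggcaaaac

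ANNAT7 (AT5G10230, chromosome 5, 3209540 to 3211423), an annexin that binds membranes in the presence of calcium, had 0, 0.849 and 1.46 CPM at 29 °C, against 10.6, 11.6 and 11.3 CPM at 22 °C (log2 fold change -3.85, SE 0.83, adjusted p = 0.00995). W1 had no counts for it, and no warm library came near the cool ones. AT2G22590, a UDP-glycosyltransferase gene with no further annotation in the table, had 1.19, 2.48 and 3.2 CPM at 29 °C, against 24.7, 22.4 and 25.1 CPM at 22 °C (log2 fold change -3.39, SE 0.35, adjusted p = 0.000165). The 8 other falls are wall genes: the extensins AT4G08400, AT4G08410, EXT12, EXT6 and HRGP1, the proline-rich proteins PRP1 and PRP3, and AT2G45220, annotated by RefSeq as pectin methylesterase 17. EXT12, as an example, had 0.606, 2.38 and 1.51 CPM at 29 °C, against 17, 9.02 and 29.4 CPM at 22 °C (log2 fold change -3.62, SE 0.47, adjusted p = 0.000729). W1 was the lowest library in 8 of these 8, and PRP1 and PRP3 also serve as root hair markers. Adjusted for root score, PRP1, PRP3 and AT2G45220 turned to log2 fold changes of 0.08, 0.28 and 0.44. PRP1 and PRP3 are among the markers that the score averages, so they were adjusted in part for their own levels. Of the 50-base stretches of AT4G08400, AT4G08410, EXT6 and HRGP1, 62.2%, 59.2%, 45.7% and 19.5% also occur elsewhere in the genome, so reads of these near copies may be mixed.

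Grouped by the table's descriptions, some families without symbols leaned one way. They were picked after their values were seen and are read against the 7.91% higher and 6.67% lower among all genes without a symbol. Of pentatricopeptide repeat genes, which encode RNA-binding proteins that process RNA in chloroplasts and mitochondria, 24 rose (9.8%) and 1 fell (0.408%) of 245 tested (median log2 fold change 0.16), with 12 to 15 rises without W1, C2 or C3. Their share of rises was near that of all genes without a symbol, and falls were scarce. Among B-box genes, transcription regulators of light signalling, 6 rose and 2 fell of 18 tested, and among HSP20-like genes 8 rose and 2 fell of 29 tested. Chaperone DnaJ genes, partners of HSP70, gave 7 rises (10.1%) and 1 fall (1.45%) of 69, with 4 rises without C2 and 11 without W3. Here too the share of rises was near that of all genes without a symbol. SAUR-like auxin response genes gave 11 rises and 3 falls of 65, but 4 rises without W1 or C1 and 3 without C2.

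Falls outnumbered rises in several wall, transport and defence families. Of proline-rich extensin-like genes 0 rose and 7 fell of 12 tested (median -2.44), and of peroxidase genes, many of them active in roots and in lignin formation, 1 rose and 15 fell of 55 tested (median -1.10), with 6 falls without C3 and 24 without W3. UDP-glycosyltransferase genes gave 2 rises and 13 falls of 68, and major facilitator transporters 4 and 15 of 109, each with 8 falls without C3. Falls were also 8 without C2 in the glycosyltransferase group and 8 without C1 in the transporter group. MATE efflux carriers moved both ways, with 5 rises and 8 falls of 45, and 5 falls without W1 or C3. Of WRKY factors, regulators of defence, 1 rose and 11 fell of 51 tested (median -0.53), with 4 or 5 falls without W1, C1, C2 or C3. The 2703 genes with no description counted 238 rises (8.81%) and 90 falls (3.33%), with 153 and 51 without C1, 57 falls without C2, and 132 and 36 without C3. Those described as of unknown function counted 51 rises (5.84%) and 58 falls (6.64%) of 874, near the shares of all genes without a symbol, with 31 rises without W1, 22 and 30 without C1 and C2, 25 of each without C3 and 37 falls without C2.

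By the same rule, the largest changes among genes with a symbol that belong to no heat shock or clock GO term came from several processes. PGL5 (AT5G24420, chromosome 5, 8336614 to 8338008), a phosphogluconolactonase of the pentose phosphate pathway, had 15.4, 9.46 and 11.5 CPM at 29 °C, against 4.66, 4.92 and 3.26 CPM at 22 °C (log2 fold change 1.51, SE 0.22, adjusted p = 0.00127). MES16 (AT4G16690, chromosome 4, 9392147 to 9393529), a methylesterase that acts in chlorophyll breakdown, had 7.92, 5.92 and 6.16 CPM at 29 °C, against 2.72, 2.67 and 1.8 CPM at 22 °C (log2 fold change 1.48, SE 0.22, adjusted p = 0.0014). SQE6 (AT5G24160, chromosome 5, 8183075 to 8186640), annotated as a squalene epoxidase, an enzyme of sterol and triterpene synthesis, had 36.2, 32.7 and 27.2 CPM at 29 °C, against 12.9, 10.7 and 11.6 CPM at 22 °C (log2 fold change 1.45, SE 0.15, adjusted p = 0.00022). None of these overlapped between temperatures, which the rule required. Antenna genes LHCB2.2, LHCB2.1 and LHCB2.3 complete the rises at 2.11, 1.93 and 1.33.

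Among the falls with a symbol, FAR5 (AT3G44550, chromosome 3, 16138017 to 16141546), a fatty acyl reductase that makes the alcohols of suberin, had 1.96, 6.79 and 8.42 CPM at 29 °C, against 22, 26.8 and 27.3 CPM at 22 °C (log2 fold change -2.15, SE 0.38, adjusted p = 0.00393). GPAT5 (AT3G11430, chromosome 3, 3595765 to 3597952), an acyltransferase of suberin synthesis, had 1.11, 3.3 and 6.96 CPM at 29 °C, against 13.1, 19.2 and 15.3 CPM at 22 °C (log2 fold change -2.06, SE 0.47, adjusted p = 0.0125). CHIA (AT5G24090, chromosome 5, 8143699 to 8145252), a chitinase gene, had 0.903, 0.936 and 1.81 CPM at 29 °C, against 4.94, 3.99 and 6.46 CPM at 22 °C (log2 fold change -2.07, SE 0.31, adjusted p = 0.00162). All cool libraries of these genes lay above all warm ones, which the rule required. FAR5 and GPAT5 act in the root endodermis, whose 4 markers summed to 6.68 to 10.4 CPM at 29 °C and 19.0 to 35.2 CPM at 22 °C, and after adjustment for root score their log2 fold changes were -0.80 and -0.63. RHS19, GPAT7 and GSTU22 complete the falls at -2.81, -2.46 and -2.24. GPAT7 lost its call without W2, C2 or C3, and GSTU22 without W2 or C3.

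The 22 pathway lists differed in both direction and share of called members, which is read against 8.08% higher and 7.41% lower among all genes tested. Aliphatic glucosinolate genes had the highest share of falls, 11 of 16, followed by the general phenylpropanoid and lignin genes, 13 of 24. SR splicing factors had the highest share of rises, 7 of 20. The plot of called members by list shows these shares.

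**Figure D2:**
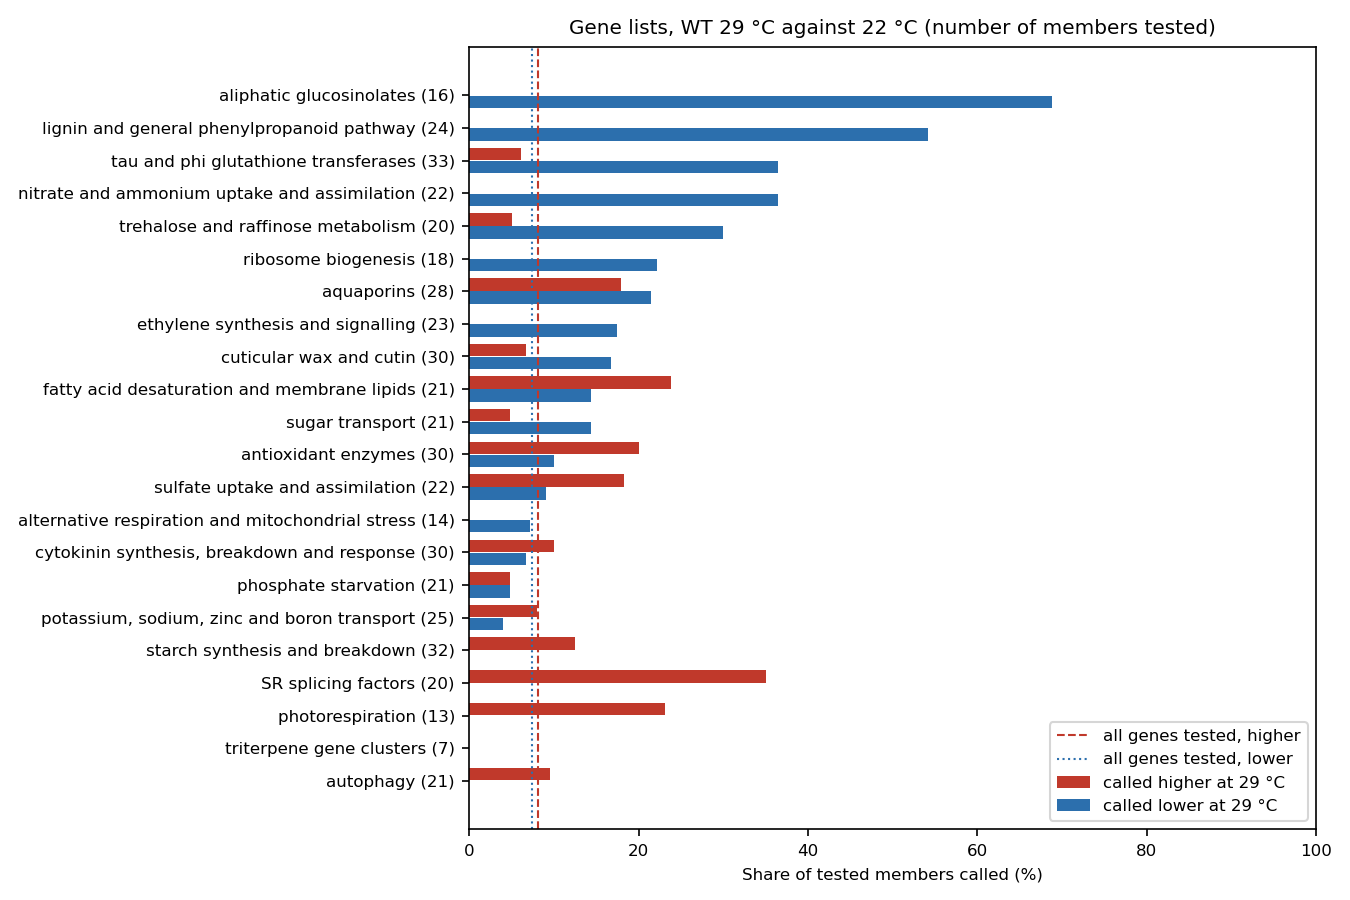
Percent of the tested members of each pathway list that were called higher at 29 °C and called lower at 29 °C, with dashed lines at the share of all 21870 genes tested, 8.08% higher and 7.41% lower. Aliphatic glucosinolates (0% higher, 68.8% lower) and the phenylpropanoid list (0% and 54.2%) reach furthest down, and SR splicing factors (35% and 0%) furthest up.

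Aliphatic glucosinolates are sulfur-rich defence compounds of the cabbage family, made from methionine by lengthening its chain, converting it to an aldoxime and adding sulfur, glucose and sulfate. Of 16 tested genes 0 rose and 11 fell, and the median log2 fold change was -0.74 over all 16, against 0.0018 over all genes tested. Falls included genes of chain elongation, aldoxime formation, C-S cleavage, sulfation and transport, while the glucosyltransferase gene UGT74B1 was not called (-0.18, adjusted p = 0.176). UGT74C1, another UDP-glycosyltransferase symbol of the list, matched no locus and was not examined, nor were FMO-GSOX1 and FMO-GSOX3. BCAT4 (AT3G19710, chromosome 3, 6846969 to 6849497), the aminotransferase that starts chain elongation, had 66, 67.7 and 58.5 CPM at 29 °C, against 138, 112 and 106 CPM at 22 °C (log2 fold change -0.89, SE 0.14, adjusted p = 0.00236). Every warm library lay below every cool one. MAM1 and MAM3, the synthases that add each carbon, fell by 0.92 and 1.41 on the log2 scale, and BAT5, which carries the intermediates into the chloroplast, fell by 0.75. MAM3 lost its call without C1 or C3.

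CYP79F1 and CYP79F2, adjacent genes whose enzymes turn the lengthened methionine into aldoximes, also fell. CYP79F2 (AT1G16400, chromosome 1, 5605159 to 5607473) had 12.9, 15.9 and 16.5 CPM at 29 °C, against 37, 29.6 and 37.1 CPM at 22 °C (log2 fold change -1.19, SE 0.14, adjusted p = 0.000498), and CYP79F1 (AT1G16410, chromosome 1, 5608807 to 5611426) had 58.7, 42.5 and 41.3 CPM at 29 °C, against 107, 104 and 79.7 CPM at 22 °C (log2 fold change -1.03, SE 0.23, adjusted p = 0.0118). For both genes all cool libraries exceeded all warm ones. CYP83A1, which oxidises the aldoximes, SUR1, the C-S lyase that indole glucosinolates share, and the sulfotransferases SOT17 and SOT18 fell by 0.65, 0.73, 1.09 and 0.46. The transporter GTR2 fell by 0.59 (SE 0.12), and its paralog GTR1 had a log2 fold change of 0.15 (adjusted p = 0.286). Of the regulators, MYB28 had 69.3 ± 8.68 CPM at 29 °C and 80.5 ± 4.69 CPM at 22 °C (SD, n = 3 each; log2 fold change -0.22, adjusted p = 0.174). MYB29 and MYB76 were not called either, at 0.04 (adjusted p = 0.876) and -1.12 (adjusted p = 0.0868). SOT18 lost its call without C1.

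The falls of SUR1 (log2 fold change -0.73, SE 0.071, adjusted p = 0.000125) and SOT17 (log2 fold change -1.09, SE 0.15, adjusted p = 0.00105) were among those with the smallest adjusted p. The count was 9 to 11 with a library left out and 11 without W1. When root score was a covariate, the list's median was -0.47, no member was called and MAM3 turned to 0.28. All 11 members that fell in WT also fell in the line labelled rve5-2, whose libraries are separate, as did 77.4% of all 1620 genes that fell in WT.

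The general phenylpropanoid pathway turns phenylalanine into the precursors of lignin, flavonoids and other phenolics, and 13 of its 24 tested genes fell and 0 rose (median log2 fold change -0.50). At the entry, PAL1 (AT2G37040, chromosome 2, 15557376 to 15560363), a phenylalanine ammonia-lyase, had 45.5, 113 and 105 CPM at 29 °C, against 227, 210.2 and 249 CPM at 22 °C (log2 fold change -1.38, SE 0.25, adjusted p = 0.00454). W1 was the lowest, and no warm library reached a cool one. PAL2 and PAL4 fell by 0.97 (SE 0.16) and 1.77 (SE 0.28), and PAL3 had a log2 fold change of -0.38 (adjusted p = 0.263). The cinnamate hydroxylase gene C4H (AT2G30490, chromosome 2, 12993663 to 12995770) had 121, 177 and 171 CPM at 29 °C, against 239, 233 and 247 CPM at 22 °C (log2 fold change -0.62, SE 0.12, adjusted p = 0.00617), again with no overlap.

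The 4 coumarate ligase genes of the list, which activate coumarate, all fell: 4CL1 by 0.52, 4CL2 by 0.80, 4CL3 by 0.75 and 4CL5 by 0.68 on the log2 scale. In the lignin branch CYP98A3, CCOAOMT1, OMT1 and CAD4, which hydroxylate, methylate and reduce the precursors, fell by 0.29, 0.48, 0.37 and 0.75. CAD4, a cinnamyl alcohol dehydrogenase (AT3G19450, chromosome 3, 6744598 to 6747214), had 88.5, 107 and 102 CPM at 29 °C, against 159.7, 166 and 176 CPM at 22 °C (log2 fold change -0.75, SE 0.085, adjusted p = 0.000337). The 3 warm values lay together below the 3 cool ones. PRX72, a peroxidase that joins lignin units, fell by 2.24 (SE 0.53) but turned to 0.43 adjusted for root score. HCT, CSE, CCR1 and FAH1 were not called, at -0.02, -0.19, -0.08 and 0.04. 4CL3 and OMT1 lost their calls without W1, W3, C1 or C3, 4CL5 and CYP98A3 without W1, W2, C1 or C3, and PRX72 without C3.

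The count of falls was 8 without C3. After adjustment for root score, the median was -0.11 and no member was called. The xylem markers XCP1 and IRX3 fell as well, by 0.85 and 0.69, while the xylem marker XCP2 was not called (0.13, adjusted p = 0.548).

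Genes of this pathway often hold an AC element, ACCTACC, which MYB factors bind. It was found on either strand in the 250 bases before the table's start of 25% of the 24 phenylpropanoid genes and 18.8% of the 16 glucosinolate genes, against 1.2% of all genes tested. With RefSeq starts, an alternative added after seeing the data, the shares were 8.33%, 12.5% and 1.2%, and PAL1, C4H and CYP79F1 of the genes shown no longer hold it. Stretches from 3 genes of each list that fell are shown so that the element can be compared, read on the strand of the gene in TAIR10, with the element or its reverse complement in capitals. PAL1, C4H and 4CL3 lie on the minus strand (chr2:15560405-15560434, chr2:12995949-12995978 and chr1:24171686-24171715), as does CYP83A1 (chr4:7992483-7992512), and CYP79F1 and CYP79F2 on the plus strand (chr1:5608708-5608737 and chr1:5604928-5604957).
PAL1: ctctatacgcttACCTACCaacaaacacta
C4H: tggtctttctttACCTACCaccatcaacaa
4CL3: gccattccctctACCTACCccaatttcttc
CYP79F1: gattaccgtagtACCTACCcaaaagcccaa
CYP79F2: ctaaacgtggttACCTACCcaagagctcac
CYP83A1: agagggatgttgGGTAGGTgaaggtgttta

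SR proteins are RNA-binding splicing factors that help choose splice sites, and their own transcripts are often spliced in several ways. Of 20 tested genes 7 rose and 0 fell (median log2 fold change 0.22). SR45a (AT1G07350, chromosome 1, 2257425 to 2260101), an SR-like factor that other stresses induce, had 109.9, 113 and 123 CPM at 29 °C, against 56.9, 58.4 and 48.9 CPM at 22 °C (log2 fold change 1.07, SE 0.10, adjusted p = 0.000125). RS2Z33 (AT2G37340, chromosome 2, 15670147 to 15672700) had 116, 119 and 133 CPM at 29 °C, against 82.8, 89 and 74.4 CPM at 22 °C (log2 fold change 0.58, SE 0.082, adjusted p = 0.00111). SR30 (AT1G09140, chromosome 1, 2942564 to 2945961), a homolog of the human splicing factor SF2/ASF, had 87.3, 98.1 and 94 CPM at 29 °C, against 56, 65.2 and 59 CPM at 22 °C (log2 fold change 0.63, SE 0.10, adjusted p = 0.00246). Warm and cool libraries did not overlap in any of the 3.

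SCL33, SR34b, RS31a and RS31 rose by 0.87, 0.75, 0.63 and 0.23 on the log2 scale. Other members were near 0, such as SR34 (0.06, adjusted p = 0.726), SC35 (0.09, adjusted p = 0.319) and SR45 (-0.08, adjusted p = 0.654). RS2Z33 and RS31a overlap another annotated gene each (AT2G37330 and AT2G46600). The count of rises was 4 without C1 or C3. All 7 also rose in the line labelled rve5-2, as did 80.6% of all 1767 genes that rose in WT, and when root score was a covariate all 7 kept a positive log2 fold change but none was called. The median of the list was then 0.05. Counts per gene do not show which splice forms changed. SR34b and RS31a lost their calls without C1 or C3, and RS31 without W2, W3, C1 or C3.

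**Figure D3:**
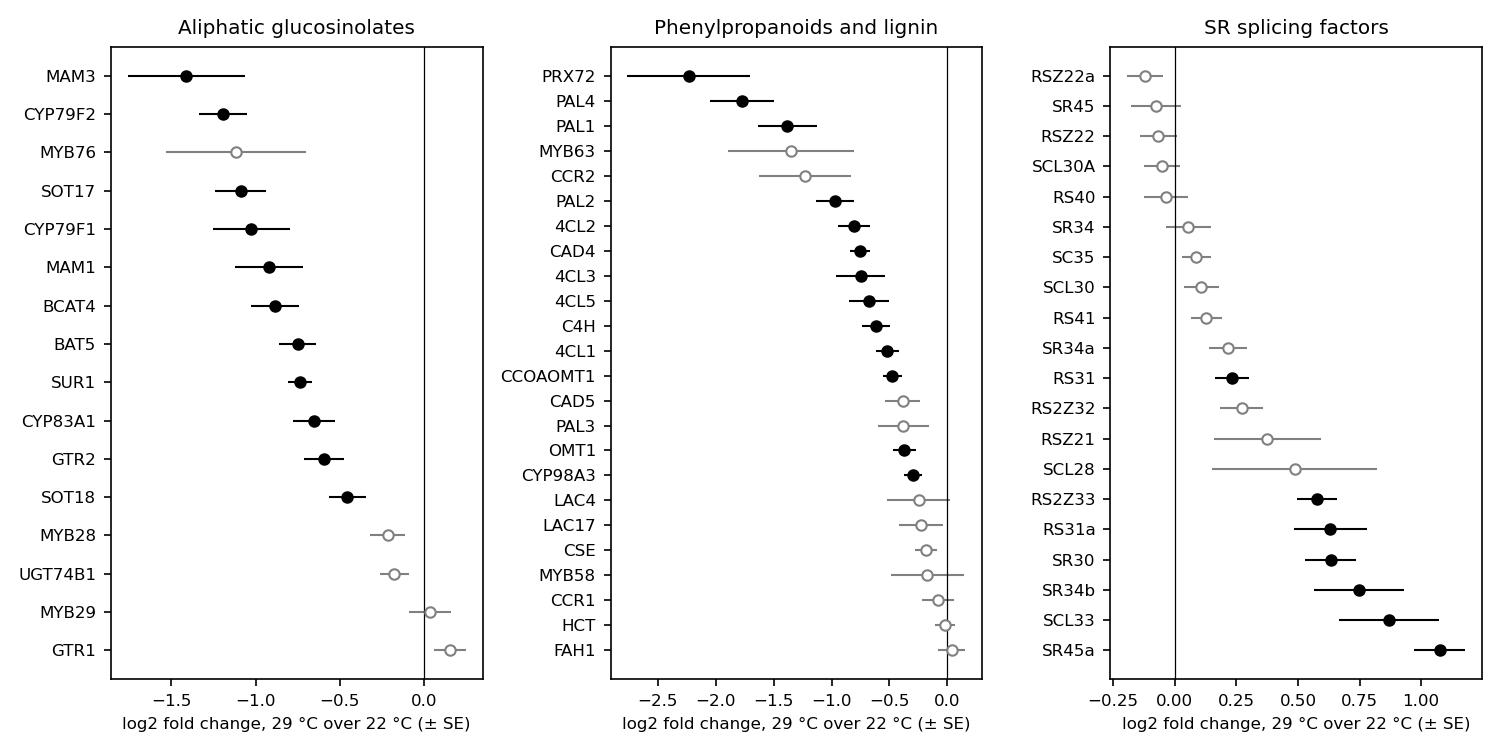
Log2 fold change (29 °C over 22 °C, with SE) of every tested member of the aliphatic glucosinolate, phenylpropanoid and SR splicing factor lists. Each point is 1 gene, filled where called. Glucosinolate and phenylpropanoid members lie almost all below 0 and SR splicing factors mostly above it.

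Ribosome assembly genes leaned slightly lower. Of 18 tested 0 rose and 4 fell, and 17 of 18 had a negative log2 fold change (median -0.18). NSN1 (AT3G07050, chromosome 3, 2229590 to 2232361), a nucleolar GTPase needed for the large subunit, had 62, 73.2 and 77 CPM at 29 °C, against 95.6, 101 and 91 CPM at 22 °C (log2 fold change -0.44, SE 0.094, adjusted p = 0.0095). All warm libraries stood below all cool ones by a small margin. NUC1, the nucleolin that acts on rRNA gene transcription, FIB2, a fibrillarin that methylates rRNA, and CBF5, the pseudouridine synthase also called NAP57, fell by 0.35, 0.50 and 0.42 on the log2 scale. FIB2 overlaps AT4G25631. The count of falls was 2 without W1, 1 without C1 or C2 and 1 with the WT libraries alone in the fit. NUC1 lost its call without C1 or C2, FIB2 without W1, C1, C2 or C3, and CBF5 without W1, C1 or C2.

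Genes for ribosome assembly and translation often hold a telo box, AAACCCTA, near their start. On either strand in the 250 bases before the table's start it was found in 72.2% of the 18 genes, against 5.82% of all genes tested. With RefSeq starts the shares were 22.2% and 3.63%, and of the genes shown NSN1 alone still holds it. The stretches of the 4 genes that fell are shown with the box in capitals, FIB2 and NUC1 from the plus strand (chr4:13074103-13074132 and chr1:18098065-18098094) and CBF5 and NSN1 from the minus strand (chr3:21156044-21156073 and chr3:2232368-2232397) of TAIR10.
FIB2: aaaccctgttaAAACCCTAgcttgaaacac
NUC1: tataaatacatgttctaAAACCCTAagctg
CBF5: cgcctaAAACCCTAaaAAACCCTAgtcctt
NSN1: atctaatagcaAAACCCTAatttggcgccg

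Aquaporins, channels for water and small solutes, split by member: of 28 tested 5 rose and 6 fell. The 5 that rose sit in the tonoplast (TIP) or the plasma membrane (PIP). TIP1;2 (AT3G26520, chromosome 3, 9722443 to 9723815) had 1353, 1320.1 and 1216 CPM at 29 °C, against 859, 731 and 730.0 CPM at 22 °C (log2 fold change 0.75, SE 0.085, adjusted p = 0.000347). TIP2;1 (AT3G16240, chromosome 3, 5505404 to 5507050) had 585, 469 and 500.3 CPM at 29 °C, against 321, 262 and 282 CPM at 22 °C (log2 fold change 0.84, SE 0.12, adjusted p = 0.00124). Neither gene overlapped between temperatures. TIP1;1, PIP2;7 and PIP2;6 rose by 0.64, 0.58 and 0.55 on the log2 scale (SE 0.095, 0.11 and 0.08), and the 5 rises held without each library in turn.

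The 6 that fell were PIP2;3, PIP2;4, TIP2;3, TIP4;1, NIP1;1 and NIP1;2. PIP2;4 (AT5G60660, chromosome 5, 24375457 to 24376989) had 1.12, 2.91 and 2.57 CPM at 29 °C, against 7.71, 6.04 and 12.5 CPM at 22 °C (log2 fold change -1.99, SE 0.36, adjusted p = 0.00412). TIP4;1 (AT2G25810, chromosome 2, 11012506 to 11014170) had 1.33, 1.76 and 3.61 CPM at 29 °C, against 4.95, 9.52 and 11.7 CPM at 22 °C (log2 fold change -1.97, SE 0.50, adjusted p = 0.0208). W1 was the lowest of all 6 libraries for both genes. The number of falls was 2 without W1 or C1, 3 without W2 or C2, 1 without C3 and 2 with the WT libraries alone in the fit. Adjusted for root score, PIP2;3, TIP2;3 and NIP1;1 turned to 0.42, 0.78 and 0.66, while the 5 that rose stayed positive at 0.33 to 0.70, though not called. Of the 50-base stretches of PIP2;3 27.6% occur elsewhere in the genome, so its counts may hold reads of close paralogs. PIP2;3 lost its call without W1, C1 or C3, TIP2;3 without W3, C1, C2 or C3, TIP4;1 without W1, W2, C2 or C3, NIP1;1 without W1, W2, C1, C2 or C3, and NIP1;2 without any 1 of the 6 libraries.

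**Figure D4:**
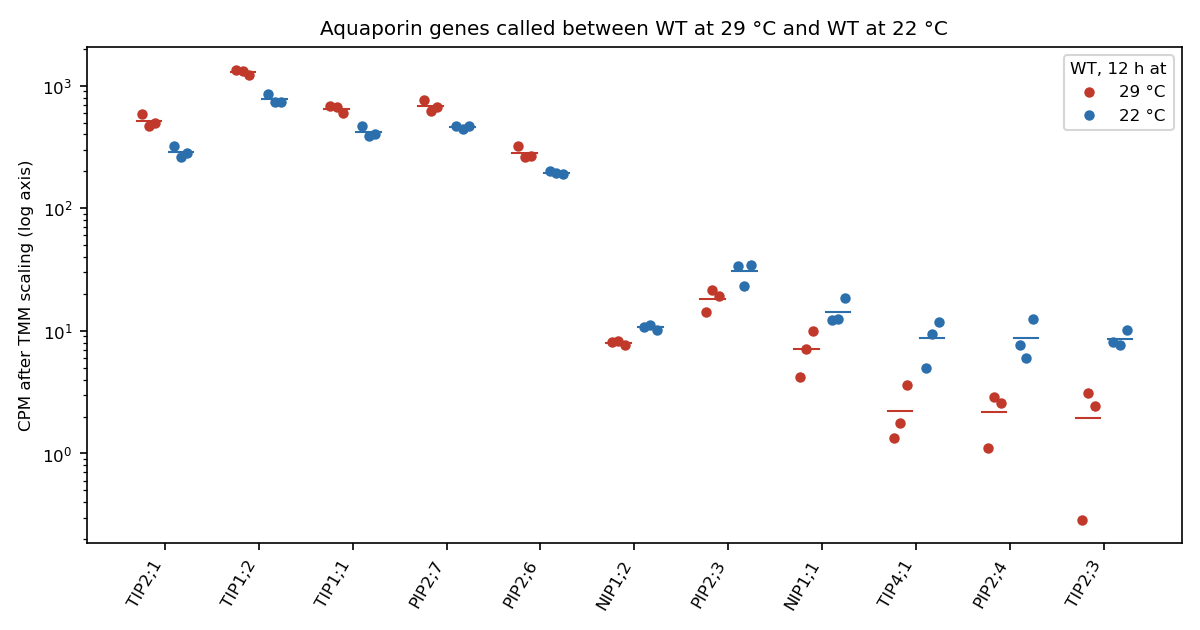
Levels of the 11 called aquaporin genes in CPM on a log axis, 1 point per library, with WT at 29 °C left of WT at 22 °C. The 5 rises are higher at 29 °C and the 6 falls lower, and the lowest point of PIP2;4 and TIP4;1 at 29 °C is W1.

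Nitrogen genes fell without a rise: of 22 tested members of nitrate and ammonium uptake and assimilation 0 rose and 8 fell (median -0.41). GLN1;2 (AT1G66200, chromosome 1, 24655210 to 24657638), a cytosolic glutamine synthetase, had 301, 377 and 486 CPM at 29 °C, against 822, 717 and 839 CPM at 22 °C (log2 fold change -1.03, SE 0.19, adjusted p = 0.00438). GLT1 (AT5G53460, chromosome 5, 21700202 to 21710066), the NADH-dependent glutamate synthase, had 317, 399.9 and 510.5 CPM at 29 °C, against 707, 759 and 736 CPM at 22 °C (log2 fold change -0.84, SE 0.16, adjusted p = 0.00514). No library overlapped for either gene. LBD38 and LBD39, nitrate-induced repressors, fell by 0.85 and 0.44, the asparagine synthetase gene ASN2 by 0.50, and GLN1;1 and the nitrate transporter NRT1.1 by 0.55 and 0.56 on the log2 scale. NIA1 and NIA2, the nitrate reductases, were not called (-0.07 and 0.22), nor was the plastid glutamine synthetase GLN2 (0.25). GLN1;1 lost its call without W1, W3, C1, C2 or C3, and NRT1.1 without W1, W2, C1 or C3.

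ASN1, an asparagine synthetase gene that darkness induces, had 0 counts in all 3 warm libraries and a mean of 0.442 CPM at 22 °C, that is at least 9.77-fold lower at 29 °C, taking 3 fragments over the group as the floor, which covers counting error only. After adjustment for root score, the list's median was -0.01, and NRT1.1 turned to 0.03. All 8 that fell in WT also fell in the line labelled rve5-2, where 13 of the 22 fell, beside the 77.4% of all WT falls that were shared.

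Sulfate genes moved both ways, with 4 rises and 2 falls of 22. SULTR3;1 (AT3G51895, chromosome 3, 19251287 to 19255760), a sulfate transporter of the chloroplast envelope, had 5.72, 3.63 and 3.64 CPM at 29 °C, against 1.4, 1.23 and 1.68 CPM at 22 °C (log2 fold change 1.59, SE 0.26, adjusted p = 0.0025). SULTR4;2, which releases sulfate from the vacuole, LSU2, a marker of low sulfur, and APR2, the reductase that controls flux into cysteine, rose by 0.68, 0.71 and 0.38. APS4, an ATP sulfurylase, and SERAT2;2, a serine acetyltransferase, fell by 0.99 and 0.36. SULTR3;1 did not overlap between temperatures. SULTR4;2 and APS4 overlap AT3G12510 and AT5G43770. The falls were 4 in DESeq2, 5 in limma on log2(FPKM + 1) and 4 in limma on log2(FPKM + 0.1). APR2 lost its call without W1, C1, C2 or C3.

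Glutathione transferases of the tau and phi classes, which couple glutathione to toxins and stress products, counted 2 rises and 12 falls of 33 (median -0.53). GSTU24 (AT1G17170, chromosome 1, 5869846 to 5870840) had 1.3, 3.61 and 5.44 CPM at 29 °C, against 12.7, 11.3 and 14 CPM at 22 °C (log2 fold change -1.88, SE 0.37, adjusted p = 0.0068), and GSTF9 (AT2G30860, chromosome 2, 13138997 to 13140245) had 509, 531 and 527 CPM at 29 °C, against 795, 774 and 701 CPM at 22 °C (log2 fold change -0.53, SE 0.077, adjusted p = 0.00127). All cool libraries exceeded all warm ones for both. GSTU26, GSTU8, GSTF2, GSTU20 and GSTF10 fell by 1.38, 1.66, 1.12, 0.67 and 0.57 on the log2 scale, and GSTU22, GSTF4, GSTF14, GSTU1 and GSTU27 complete the 12 at -2.24, -1.97, -1.90, -1.16 and -0.41. The 2 that rose were GSTU18 (by 0.45) and GSTU5 (by 0.40). The falls were 6 with the WT libraries alone in the fit. When root score was a covariate, the median was 0.10 and GSTF10, GSTF14 and GSTU1 were above 0, at 0.10, 0.05 and 0.00035. GSTU20 lost its call without C1, GSTF4 without C3, GSTF14 without W2, GSTU1 without W2, C1, C2 or C3, GSTU27 without W1, W2, W3, C1 or C3, and GSTU5 without C2.

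Trehalose 6-phosphate is a signal of sucrose supply, and raffinose sugars protect cells in cold and drought. Of 20 genes of both pathways 1 rose and 6 fell (median -0.46). RS5 (AT5G40390, chromosome 5, 16161515 to 16165357), a raffinose synthase, had 20.8, 25.1 and 28 CPM at 29 °C, against 51.1, 41 and 49.5 CPM at 22 °C (log2 fold change -0.94, SE 0.13, adjusted p = 0.000852). GOLS1 (AT2G47180, chromosome 2, 19368798 to 19370441), a galactinol synthase at the start of raffinose synthesis and a known target of heat shock factors, had 7.14, 15.1 and 18.5 CPM at 29 °C, against 5.58, 5.64 and 3.71 CPM at 22 °C (log2 fold change 1.45, SE 0.34, adjusted p = 0.0159) and overlaps AT2G47170. The warm libraries lay below the cool ones for RS5 and above them for GOLS1. Falls of the trehalose phosphate synthases TPS5 and TPS9 were 0.50 and 0.42, and of the phosphatases TPPI, TPPB and TPPD 1.45, 1.45 and 1.51 on the log2 scale. The falls were 3 without C1, C2 or C3 and 3 with the WT libraries alone in the fit. TPS9 and TPPB turned to 0.12 and 0.30 adjusted for root score. GOLS1 lost its call without C3, TPS9 without W1, W2, C1, C2 or C3, TPPB without W2, C1, C2 or C3, and TPPD without any 1 of the 6 libraries.

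Sugar transporters gave 1 rise and 3 falls of 21. TMT1 (AT1G20840, chromosome 1, 7244939 to 7248143), which loads hexoses into the vacuole, had 32.6, 47.1 and 43.4 CPM at 29 °C, against 75.7, 73.9 and 79.3 CPM at 22 °C (log2 fold change -0.89, SE 0.12, adjusted p = 0.000753), with no overlap. STP4 and STP13, hexose importers of the plasma membrane, fell by 0.67 and 0.59, and SWEET15, a sucrose exporter, rose by 1.52 at 1.61 ± 0.573 CPM at 29 °C and 0.563 ± 0.249 CPM at 22 °C (SD, n = 3 each). Of 32 starch genes 4 rose and 0 fell: GBSS1, which makes amylose, by 1.33, the starch synthase SS2 by 0.31, the debranching enzyme ISA1 by 0.30, and the phosphatase LSF2, which acts in breakdown, by 0.42. The count of starch rises was 2 without W1 or C2 and 0 with the WT libraries alone in the fit. GBSS1 had 5.34, 7.38 and 3.04 CPM at 29 °C, against 2.47, 1.96 and 1.86 CPM at 22 °C. Its warm libraries all exceeded its cool ones. The falls among sugar transporters were 1 without C3. STP4 and GBSS1 lost their calls without C3, STP13 without W1, W2, C1, C2 or C3, SWEET15 without W1, W2, C2 or C3, ISA1 without W1 or C2, and LSF2 without W1, C1 or C2.

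Membrane lipid genes counted 5 rises and 3 falls of 21. FAD2 (AT3G12120, chromosome 3, 3860285 to 3863050), the oleate desaturase of the endoplasmic reticulum, had 847, 587 and 693 CPM at 29 °C, against 409, 423 and 437 CPM at 22 °C (log2 fold change 0.74, SE 0.12, adjusted p = 0.00251). All 3 warm libraries exceeded all 3 cool ones. FAD6, the matching plastid enzyme, FAD4, which acts on phosphatidylglycerol, FAB2, the stearoyl-ACP desaturase, and DGD1, which makes galactolipid, rose by 0.40, 0.60, 0.27 and 0.59. The desaturases that make trienoic acids were not called, with FAD3 at -0.01, FAD7 at 0.36 and FAD8 at -0.07 (adjusted p = 0.952, 0.0698 and 0.72). PLDALPHA1, a phospholipase D, FATA, an acyl-ACP thioesterase, and the acetyl-CoA carboxylase gene ACC1 fell by 0.54, 0.64 and 0.41. FAD4 overlaps AT4G27040. The rises were 3 with the WT libraries alone in the fit. FAB2 lost its call without W1, C1, C2 or C3.

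Wax and cutin genes counted 2 rises and 5 falls of 30. LACS2 (AT1G49430, chromosome 1, 18291043 to 18295825), which activates fatty acids for cutin, had 30.9, 37.8 and 31.4 CPM at 29 °C, against 64.3, 56.9 and 60.3 CPM at 22 °C (log2 fold change -0.86, SE 0.099, adjusted p = 0.000392), with no overlap. The cutin genes GPAT4, GPAT6 and CYP86A4 fell by 0.43, 1.03 and 1.14, and CER10, a reductase of chain elongation, by 0.21. CER3, needed for wax alkanes, and MYB96, an activator of wax genes, rose by 0.45 and 0.82. The falls were 3 with the WT libraries alone in the fit. MYB96 turned to -0.13 after adjustment for root score. CER10 lost its call without W1, W2, W3, C1 or C3, and MYB96 without W1, W2, C1, C2 or C3.

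Antioxidant enzymes counted 6 rises and 3 falls of 30. Those that rose include the plastid iron superoxide dismutases FSD2 and FSD3, by 0.51 and 0.31 (FSD1 was not called), the copper/zinc dismutase CSD3 by 0.67, the peroxidase APX6 by 0.59 and the plastid dehydroascorbate reductase DHAR3 by 0.42. FSD2 (AT5G51100, chromosome 5, 20773296 to 20775701) had 108, 103 and 86.7 CPM at 29 °C, against 71.2, 67.4 and 70.3 CPM at 22 °C (log2 fold change 0.51, SE 0.083, adjusted p = 0.00246). The other was the catalase CAT2, which also belongs to photorespiration. GPX6 and GPX2, glutathione peroxidases, and GR1, a glutathione reductase, fell by 0.68, 0.29 and 0.58. The rises were 3 with the WT libraries alone in the fit. Warm libraries of FSD2 lay above all cool ones. CSD3, GPX6 and GPX2 overlap AT5G18110, AT4G11590 and AT2G31560, and GPX2 turned to 0.14 when root score was a covariate. FSD3 lost its call without W1, W2, C1, C2 or C3, and GPX2 without W1, W2, C1 or C3.

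Photorespiration salvages the by-product of oxygen fixation by Rubisco through chloroplast, peroxisome and mitochondrion. Of 13 tested genes 3 rose and 0 fell, and 11 of 13 had a positive log2 fold change (median 0.30, and 0.05 adjusted for root score). The table's wider GO term photorespiration went the other way: of 137 genes 6 rose (4.38%) and 24 fell (17.5%), with a median log2 fold change of -0.08, 10 rises without W3, 3 without C2 or C3 and 14 falls without C3. All 3 genes of the list that rose encode peroxisomal enzymes. CAT2 (AT4G35090, chromosome 4, 16700342 to 16703325), the catalase that removes the peroxide formed, had 919.9, 654 and 688 CPM at 29 °C, against 488, 485 and 552 CPM at 22 °C (log2 fold change 0.57, SE 0.12, adjusted p = 0.00838). GGT1, a glutamate:glyoxylate aminotransferase, and GOX1, a glycolate oxidase, rose by 0.56 and 0.42 (SE 0.12 and 0.10). W1 was the highest library for CAT2, and its groups did not overlap. The count of rises was 7 without W2, 5 without W3, 0 with the WT libraries alone in the fit and 6 in DESeq2. In the alternative respiration list of 14 genes NDB2 alone was called: this external NADH dehydrogenase of mitochondria (AT4G05020, chromosome 4, 2572621 to 2576595) had 2.06, 4.66 and 5.28 CPM at 29 °C, against 12.3, 17.5 and 14.4 CPM at 22 °C (log2 fold change -1.88, SE 0.32, adjusted p = 0.00315). The falls in that list were 2 without W1 or W3 and 2 in DESeq2. GOX1 lost its call without C2 or C3.

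Of 2 hormone lists other than auxin few members were called. In ethylene signalling, of 23 genes 0 rose and 4 fell: the receptors ERS1 and EIN4, by 0.50 and 0.27, the signal carrier EIN2 by 0.25 and EBF2, an F-box protein that removes EIN3, by 0.41. ERS1 (AT2G40940, chromosome 2, 17084356 to 17087297) had 38.3, 38.9 and 41.4 CPM at 29 °C, against 53.3, 60.3 and 54.3 CPM at 22 °C (log2 fold change -0.50, SE 0.072, adjusted p = 0.00117), with every warm library below every cool one. The falls were 2 without W1, W2 or C2 and 1 with the WT libraries alone in the fit. In the cytokinin list, of 30 genes 3 rose and 2 fell. LOG1 and LOG8, enzymes of the last synthesis step, and the response regulator ARR6 rose by 0.65, 0.36 and 0.49, while the receptor AHK4 and the nitrate-responsive synthesis gene IPT3 fell by 0.48 and 0.91. The cytokinin falls were 5 without W3, 1 with the WT libraries alone in the fit, 5 in DESeq2, 5 in limma on log2(FPKM + 1) and 4 in limma on log2(FPKM + 0.1). EIN4 lost its call without W1, W2, C1 or C2, EIN2 without W1, W2, C2 or C3, LOG8 without W1, C1 or C2, and IPT3 without C1.

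Few members moved in the remaining lists. Of 25 potassium, sodium, zinc and boron transport genes 2 rose and 1 fell: KAT1 and KAT2, potassium channels of guard cells, by 0.85 and 0.93, and the boron exporter BOR2 by 1.05. KAT1 (AT5G46240, chromosome 5, 18743566 to 18746730) had 21.9, 16 and 22.9 CPM at 29 °C, against 12.6, 8.92 and 12.2 CPM at 22 °C (log2 fold change 0.85, SE 0.18, adjusted p = 0.00837). The 4 guard cell markers, KAT1 among them, summed to 36.0 to 40.7 CPM at 29 °C and 23.9 to 34 CPM at 22 °C. KAT1 alone of these was called, and EPF2, FAMA and MYB60 had log2 fold changes of 0.57, -0.17 and -0.67. Of 21 autophagy genes ATG8D and ATG8B, ubiquitin-like proteins of the autophagosome, rose by 0.51 and 0.51 and 0 fell. Of 21 phosphate starvation genes SQD2, a sulfolipid synthase, rose by 0.58, and the phosphatase PAP10 fell by 0.45. The rises in that list were 2 without W3 or in DESeq2 and 0 without C2, and the falls 3 without W3 and 2 without W2. Of 7 triterpene cluster genes 0 were called, but 1 was lower without W3 and 1 in DESeq2. The falls among transporters were 0 without W1, C1, C2 or C3, 5 without W3, 5 in DESeq2, 6 in limma on log2(FPKM + 1), 4 in limma on log2(FPKM + 0.1) and 4 with counts divided by the spacing of low counts. KAT2 turned to -0.26 adjusted for root score. KAT2 and BOR2 lost their calls without W1, W2, C1, C2 or C3, ATG8B without W2, W3, C1, C2 or C3, and SQD2 without C2.

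GO terms of the table were counted over 690 terms with 20 or more tested genes, and the terms with the highest share of called members in each direction are described beside the 8.08% and 7.41% of all genes. Terms named for heat, temperature, protein folding or rhythms were left out of this ranking, as were terms that share most of their called genes with a higher one. Secondary metabolic process (25.6% higher) was left out for that reason, since all 11 of its rises are also in coenzyme biosynthetic process. Protein folding (24.9% higher) was left out by its name, and 41 of its 65 rises are also in response to high light intensity. Terms share genes, and a term's name need not say what its called members do. The highest share of rises was in oxylipin biosynthetic process, where 7 rose and 0 fell of 20 (median 0.25, and 0.26 adjusted for root score). The 3 with the smallest adjusted p there are not enzymes of oxylipin synthesis: AOR is a reductase of reactive carbonyls in chloroplasts, CLA1 the first enzyme of plastid isoprenoid synthesis and CRD1 a cyclase of chlorophyll synthesis. They rose by 0.79, 0.71 and 0.75 on the log2 scale, and AOR and CRD1 overlap AT1G23730 and AT3G56950.

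Response to high light intensity followed, where 57 rose and 8 fell of 189 (falls 4 without C3, median 0.20, and 0.22 adjusted for root score). Its smallest adjusted p belong to the chaperone genes HSP90.1, AT5G48570 and Hop3, which rose by 2.68, 2.29 and 2.03. In heme biosynthetic process 6 rose and 1 fell of 21 (rises 3 without W1 or C3, median 0.12, and -0.11 adjusted for root score). Its smallest adjusted p belong to AT2G44530, a phosphoribosyltransferase gene (0.44), AT5G38290, a peptidyl-tRNA hydrolase gene (0.44), and FC1, the ferrochelatase, which fell by 0.65. FC1 (AT5G26030, chromosome 5, 9096460 to 9099185) had 22.4, 27 and 33.2 CPM at 29 °C, against 41.4, 46.3 and 42.3 CPM at 22 °C (log2 fold change -0.65, SE 0.13, adjusted p = 0.00606) and overlaps AT5G26038 and AT5G26040. Its warm and cool libraries did not overlap. In mRNA modification, a term that gathers many organelle RNA-binding proteins, 23 rose and 0 fell of 89 (rises 14 without W1 or C3, 15 without C1 and 13 without C2). Its median was 0.23, and -0.09 adjusted for root score. AT2G46250, described as related to myosin heavy chains, led the term with 54.7, 44.4 and 47.4 CPM at 29 °C, against 13.1, 13.5 and 12.3 CPM at 22 °C (log2 fold change 1.91, SE 0.11, adjusted p = 1.33e-06). No library overlapped, and it stayed called after adjustment for root score (1.44, adjusted p = 0.00712).

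Rises outnumbered falls among chloroplast genes. In chloroplast organization 29 rose and 5 fell of 133 (rises 18 without C2 and 17 without C3, and falls 2 without W2 or C2 and 3 without C1 or C3). Its median log2 fold change was 0.13, and -0.05 when root score was a covariate. With that covariate 32 of its 34 called genes kept their direction. GLK2, a transcription factor that drives chloroplast development, had 79.7, 63.7 and 61.8 CPM at 29 °C, against 37.5, 31.5 and 41.9 CPM at 22 °C (log2 fold change 0.89, SE 0.12, adjusted p = 0.000842), and the plastid chaperones CR88 and Cpn60beta2 rose by 0.73 and 0.72. For GLK2 the warm libraries all lay above the cool ones. In spindle assembly 9 rose and 0 fell of 42 (rises 5 without C3), among them the mitotic kinase CDKB2;1, the microtubule bundling protein MAP65-4 and the cyclin CYCD3, by 0.51, 0.55 and 0.54. In regulation of proton transport 16 rose and 1 fell of 73 (median 0.18, and -0.04 adjusted for root score). In red or far-red light signaling pathway 7 rose and 4 fell of 30. In coenzyme and in myo-inositol hexakisphosphate biosynthetic process the rises and falls were 11 and 5 of 39 (rises 7 without W1, C2 or C3) and 15 and 4 of 56 (rises 9 without C2). Members of the inositol term include AT1G70985, a hydroxyproline-rich glycoprotein gene (1.81), and AT1G55960, a lipid transport family gene (0.71).

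The highest share of falls was in trichoblast differentiation, where 0 rose and 33 fell of 44 (falls 20 without C3; median -2.78), and these cells form root hairs, whose 9 markers summed to 4.27 to 14.2 CPM at 29 °C and 45.0 to 140.1 CPM at 22 °C. When root score was a covariate, the median of the term was 0.0024, but root hair markers are among those that the score averages. XTH13, a wall xyloglucan enzyme, had 0.143, 0.337 and 0.161 CPM at 29 °C, against 2.57, 2.18 and 4.75 CPM at 22 °C. All cool libraries lay above the warm ones. Suberin biosynthetic process, with 0 and 7 of 10 (falls 3 without W2 or C3 and 4 without C1; median -1.34), moved likewise, and CYP86B1, a fatty acid hydroxylase of suberin, fell by 1.65. CYP86B1 lost its call without C3.

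Central carbon metabolism held several of the other terms with many falls. In aerobic respiration 1 rose and 14 fell of 28 (falls 9 without C3). The members mtLPD2, IDH1 and MAB1, subunits of mitochondrial pyruvate and citrate cycle dehydrogenases, fell by 0.54, 0.52 and 0.38. IDH1 (AT4G35260, chromosome 4, 16774195 to 16776325), a regulatory subunit of isocitrate dehydrogenase, had 49.8, 61.1 and 54.9 CPM at 29 °C, against 77.6, 77.9 and 81.4 CPM at 22 °C (log2 fold change -0.52, SE 0.084, adjusted p = 0.00248). No warm library reached a cool one. In glycolytic process 9 rose and 61 fell of 187 (falls 39 without C3), and c-NAD-MDH1, the cytosolic malate dehydrogenase, fell by 0.58. In response to glucose 1 rose and 35 fell of 75 (falls 23 without C3), and iPGAM1, a phosphoglycerate mutase of glycolysis (AT1G09780, chromosome 1, 3165370 to 3167869), had 99.5, 137 and 115 CPM at 29 °C, against 250.3, 256 and 276 CPM at 22 °C (log2 fold change -1.15, SE 0.10, adjusted p = 6.25e-05). That gene did not overlap between temperatures. AT5G41670, a phosphogluconate dehydrogenase, and IAR4, a pyruvate dehydrogenase subunit, fell by 0.80 and 0.89. Adjusted for root score, the median log2 fold change went from -0.27 to -0.07 in aerobic respiration and from -0.14 to -0.05 in glycolytic process. In response to glucose it went from -0.38 to -0.03, and 9 of the 36 called genes turned direction.

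Falls also prevailed in wall polymer terms. In nucleotide-sugar metabolic process 0 rose and 10 fell of 20 (falls 5 without W1, 6 without W2, 4 without C2 and 2 without C3), with RHM3, AUD1 and UXS5, enzymes that make rhamnose and xylose donors, down by 0.41, 0.79 and 0.52. In D-xylose metabolic process 1 rose and 11 fell of 34 (falls 5 without W1, 6 without W2, 7 without C1, 3 without C2 and 4 without C3). In cellulose biosynthetic process 1 rose and 18 fell of 73 (falls 8 without W1, 10 without C1 and 5 without C3). CESA1 and CEV1, cellulose synthases of the primary wall, fell by 0.42 and 0.50. CEV1 (AT5G05170, chromosome 5, 1530174 to 1535414) had 189, 212 and 215 CPM at 29 °C, against 298, 259.9 and 312 CPM at 22 °C (log2 fold change -0.50, SE 0.084, adjusted p = 0.00286). Its cool libraries all exceeded its warm ones. UXS5 lost its call without C2 or C3. Adjusted for root score, the median log2 fold change went from -0.33 to 0.004 in nucleotide-sugar metabolic process. It went from -0.22 to 0.04 in D-xylose metabolic process and from -0.12 to -0.05 in cellulose biosynthetic process.

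Falls in phenolic terms follow the phenylpropanoid list. In coumarin biosynthetic process 0 rose and 25 fell of 51, and in flavonoid biosynthetic process 2 rose and 25 fell of 56 (median -0.63). UGT84A1, which joins glucose to sinapate and other phenolic acids, had 1.33, 2.57 and 2.22 CPM at 29 °C, against 10.3, 8.88 and 8.41 CPM at 22 °C (log2 fold change -2.17, SE 0.32, adjusted p = 0.00145) and overlaps AT4G15475. The acyltransferase gene AT1G28680 had 27, 33.6 and 28.3 CPM at 29 °C, against 50.8, 47.6 and 48.8 CPM at 22 °C (log2 fold change -0.73, SE 0.083, adjusted p = 0.000347) and overlaps AT1G28685. Warm and cool libraries were apart for both genes. In positive regulation of flavonoid biosynthetic process 2 rose and 36 fell of 90 (falls 23 without C1 and 20 without C3), and in tryptophan catabolic process, which gathers indole glucosinolate genes, 4 rose and 23 fell of 70. Adjusted for root score, the median log2 fold change went from -0.39 to -0.06 in the coumarin term and from -0.63 to -0.09 in flavonoid biosynthesis. It went from -0.28 to -0.04 in positive regulation of flavonoid biosynthesis and from -0.17 to -0.09 in the tryptophan term.

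**Figure D5:**
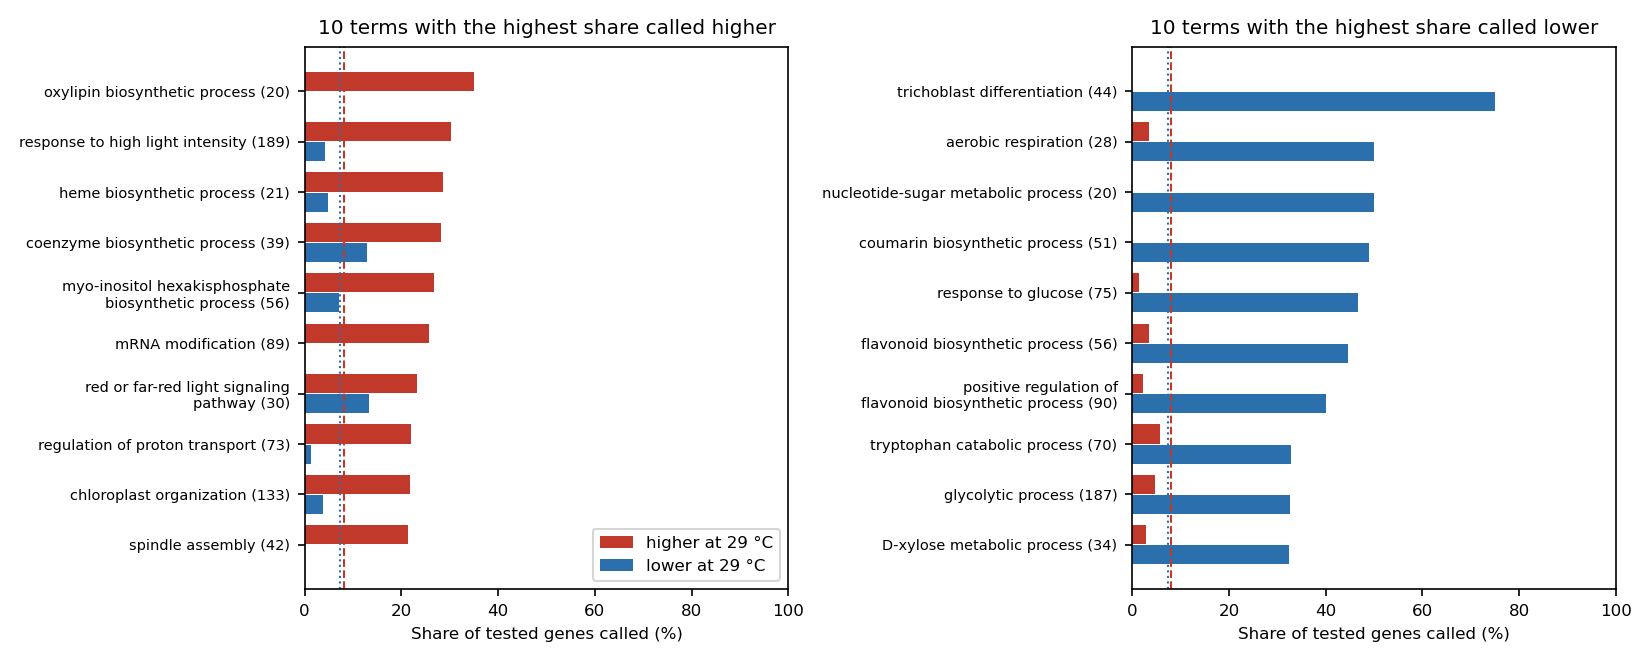
Percent of tested members called higher and called lower at 29 °C in the GO terms with the highest shares, beside dashed lines at 8.08% higher and 7.41% lower for all 21870 genes tested. Trichoblast differentiation reaches 75% lower, aerobic respiration 50%, and oxylipin biosynthetic process 35% higher.

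A set of 58 terms was chosen for their subject and not their share, some of them already described, and 36 of these had more falls than rises, 19 more rises and 3 as many of each. In response to nitrate 0 rose and 56 fell of 190 (falls 107 without W3, 31 without C1, 37 without C2 and 24 without C3; median -0.84). AAE3, an oxalyl-CoA synthetase (AT3G48990, chromosome 3, 18158747 to 18161379), and AT5G12420, a wax synthase-like acyltransferase, fell there by 0.83 and 1.81. Adjusted for root score, 25 of the 56 turned direction. In protein folding 65 rose and 11 fell of 261 (falls 7 without C1 and 5 without C3), in photosynthesis 21 rose and 5 fell of 113 (falls 8 without W1, 3 without W3 or C2 and 2 without C1 or C3) and in RNA splicing 8 rose and 1 fell of 44. In rRNA processing 28 rose and 8 fell of 210 (rises 16 without W1, 18 without C1, 12 without C2 and 15 without C3, and falls 2 without C1, 1 without C2 and 3 without C3). Adjusted for root score, the median log2 fold change went from 0.20 to -0.03 in photosynthesis and from 0.12 to -0.11 in rRNA processing. It went from 0.12 to 0.16 in protein folding and from 0.10 to 0.07 in RNA splicing.

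Stress and defence terms differed in direction, with more falls in most of those that follow. In response to salt stress 61 rose and 130 fell of 621 (rises 37 without C3, and falls 83 without C1 and 72 without C3), and in response to water deprivation 22 rose and 44 fell of 314 (rises 13 without C1 or C2 and 12 without C3, and falls 25 without C3). In toxin catabolic process 11 rose and 46 fell of 196 (rises 7 without C2, and falls 28 without C1 and 24 without C3), in response to karrikin 13 rose and 28 fell of 114 and in response to zinc ion 0 rose and 12 fell of 60. In response to wounding 16 rose and 58 fell of 296 (rises 10 without C1 and 9 without C3, and falls 34 without C3), and in defense response to fungus 11 rose and 33 fell of 286 (rises 7 without C3, and falls 21 without C1 and 14 without C3). Among wounding genes AT2G38870, a potato inhibitor I-type protease inhibitor gene, went the other way with 72.5, 49 and 57 CPM at 29 °C, against 31.9, 31 and 30.8 CPM at 22 °C (log2 fold change 0.93, SE 0.13, adjusted p = 0.000956). Its warm libraries all lay above its cool ones. In defense response 30 rose (10.1%) and 19 fell (6.42%) of 296, near the 8.08% and 7.41% of all genes tested. Its rises and falls were 18 and 17 without W1, 33 and 31 without W3, and 15 and 11 without C3. Falls were the more numerous without C1, at 15 rises and 16 falls, and without C2, at 18 and 19. In hydrogen peroxide catabolic process 10 rose and 5 fell of 69, but without W1 5 rose and 8 fell. Rises in that term were also 5 without C2 or C3 and 6 without C1, and falls 3 without C1. In response to hypoxia 8 rose and 8 fell of 69 (falls 5 without W1, W2 or C2 and 3 without C3).

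Some terms can be set beside the pathway lists. In glucosinolate biosynthetic process 15 rose and 39 fell of 158 (rises 9 without C2), and in lignin biosynthetic process 1 rose and 11 fell of 41. In water transport 14 rose and 30 fell of 129 (falls 16 without C3), while the aquaporins counted 5 rises and 6 falls. In ribosome biogenesis 3 rose and 10 fell of 103 (rises 7 without W3 and 1 without C1 or C3, and falls 3 without W1, 4 without C1 or C3 and 2 without C2), and in starch biosynthetic process 21 rose and 12 fell of 169 (rises 11 without W1, 32 without W3 and 8 without C2).

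The line labelled rve5-2 gives values from separate libraries, although its RVE5 level was 1246 to 1417 CPM at 29 °C and 939 to 1075 CPM at 22 °C, against 13.4 to 16.7 CPM and 14.4 to 15.8 CPM in WT, far above and not below it. There 2848 genes (13%) rose and 2848 (13%) fell at 29 °C, and its root score also differed, 0.897 ± 0.442 at 29 °C and 3.16 ± 0.143 at 22 °C (SD, n = 3 each). Of all genes that rose in WT 80.6% also rose there, and of those that fell 77.4% also fell. Agreement was lower for some sets, with 4 of 6 falls shared in the trehalose and raffinose list and 5 of 8 rises in RNA splicing. It was much lower for falls in the GO terms translation (2 of 27), ribosome biogenesis (2 of 10) and rRNA processing (2 of 8). In ribosome biogenesis 22 of 103 genes rose and 2 fell in that line. Of the 12 largest rises without a symbol in WT 11 also rose in that line, AT1G64628 being the exception (-0.04), and all 12 of the largest falls fell. Log2 fold changes in that line were 2.11 for CIPK20, 2.70 for AT5G12110, -4.26 for COR15A, -1.62 for CYP79F2, 1.12 for SR45a and 0.66 for TIP1;2. The difference in warm response between the line and WT was called for 0 of 21870 genes in edgeR and 44 in DESeq2, with 1070 at an unadjusted p under 0.05 in edgeR.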

How the data were processed

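RNA of Arabidopsis seedlings was sequenced in 12 libraries, 3 for each of 4 groups of line and temperature. The deposited table gives estimated counts and FPKM per gene and library that the authors computed. Per the submitters' processing notes, cutadapt 1.9, HISAT2 2.0.4, StringTie 1.3.4d, edgeR and TAIR10 were used, in roles that are not given in the sources used here. The deposited estimated counts are whole or nearly so, and low values pile up at a spacing of 3.76 to 3.79, so that about 4 counts stand for 1 fragment. By that spacing the libraries hold 17.5 to 23.6 M fragments, and p-values rest on replicate spread, since counts overstate the number of fragments.

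The estimated counts were rounded, filtered with filterByExpr (minimum count 10), scaled by TMM and fitted in edgeR 4.0.16 (R 4.3.3) with 1 mean per group over all 12 libraries. WT at 29 °C was set against WT at 22 °C with the quasi-likelihood test and Benjamini-Hochberg adjustment over all 21870 genes tested. CPM are after TMM scaling, and each SE was approximated from the fold change and the F statistic of its test. The FPKM the authors deposited were used only for limma 3.58.1 on log2(FPKM + 1) and log2(FPKM + 0.1). DESeq2 1.42.0, other scalings, no filter, a replicate block, the root score as a covariate and leaving out each library were the other alternatives. The fit was tested on simulated counts with known changes.

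Genes were named by a rule: the 12 largest rises and falls without a symbol and the 6 with one, as described in the report, then, ranked by adjusted p, up to 4 called genes per list and 3 per GO term described, plus every called gene that went against its list's majority and, in several lists, every called gene. Other list members are given as contrasts and were picked after their values were seen. List symbols that could not be matched to a locus were not analysed. A locus was found for 13 of 18 photorespiration symbols, 16 of 19 aliphatic glucosinolate, 18 of 22 ribosome assembly and 21 of 26 autophagy symbols. Some other lists lost fewer. The members and lists were chosen with earlier results of these data known. The table's GO column does not name its ontology branch, and terms not describing processes were left out by hand. Coordinates are those of the table, and promoter sequences were read from the TAIR10.1 reference, whose chromosomes end beyond the last gene of the table. No sample columns of the table were left unused.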

Additional observations from a re-analysis of the deposited data

How the results depend on the processing

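None of the alternatives other than root score turned the direction of a gene named in the report. Against 1767 genes higher and 1620 lower, DESeq2 called 2200 and 2349, median-of-ratios scaling 1697 and 1661, upper-quartile scaling 1782 and 1610, no filter on low counts 1686 and 1584, counts divided by their spacing 1844 and 1810, limma on log2(FPKM + 1) 1469 and 2110, and limma on log2(FPKM + 0.1) 1415 and 1881. Leaving out 1 library gave 989 to 1735 higher and 768 to 1903 lower, and fitting the WT libraries alone gave 934 and 708, with fewer degrees of freedom for the spread. Of the 225 named genes 56 lost their call in that fit, 44 without C3, 39 without C1, 32 without C2, 30 without W1, 26 without W2 and 11 without W3, with 0 to 7 lost under each other setting but root score. With root score as a covariate 17 genes were called higher and 1, BIOF, lower, and 333 of the 3387 changed direction. Among named genes this gave AT2G45220 0.44, GPX2 0.14, GSTF10 0.10, GSTF14 0.05, GSTU1 0.00035, KAT2 -0.26, MAM3 0.28, MYB96 -0.13, NIP1;1 0.66, NRT1.1 0.030, PIP2;3 0.42, PRP1 0.080, PRP3 0.28, PRX72 0.43, STP4 0.014, TIP2;3 0.78, TPPB 0.30 and TPS9 0.12 on the log2 scale. The cause of these turns was not tested, and PRP1 and PRP3 are themselves part of the score. With a replicate block 1924 genes were higher and 1905 lower. The numbers share no stated origin, and same-numbered libraries deviated from their group means with correlations of 0.167, -0.004 and 0.048 across genes, so the samples share only a number. Replicate 1 at 29 °C correlates best with replicate 1 at 22 °C, the others do not correlate best with their own number. A gene at 1 CPM rests on 17.5 to 23.6 fragments a library, so counting error widens the values of genes near or below that level.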
